A study of Mus musculus with 16 samples.

Results

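The 10 genes described here belong to fatty acid synthesis and lipid storage and were taken as the rows of the gene count table whose symbol is Srebf1, Fasn, Scd1, Scd2, Acaca, Acacb, Acly, Elovl6, Me1 or Plin2. All 10 were found among the 57186 genes listed, and all 10 passed the requirement of at least 100 counts over all libraries, which 25408 genes passed. RNA came from kidneys of 16 male mice on a C57BL/6J background, 4 in each of 4 labelled groups. Every mouse, controls included, was Elmo1H/H, a line made to carry a modified Elmo1 gene on both chromosomes. The non-diabetic groups were Ins2+/+, untreated (ND_C) or given vitamin B12 (ND_B12). The diabetic groups were Ins2Akita/+, untreated (D_C) or given vitamin B12 (D_B12). Ins2Akita is a germline insulin variant whose misfolded product damages beta cells, so the model is one of insulin deficiency in the whole animal. Drinking water supplied 10 mg/kg of B12 daily, starting when mice were 8 weeks old. The labels give 16 weeks of treatment, whereas the methods give 8 weeks and an age of 16 weeks at collection.

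In this pathway, citrate leaving the mitochondrion is split by ATP citrate lyase (Acly) to acetyl-CoA, which the acetyl-CoA carboxylases (Acaca, Acacb) convert to malonyl-CoA. Fatty acid synthase (Fasn) builds palmitate from both, using NADPH that malic enzyme (Me1) helps to supply, and Elovl6 elongates it while the stearoyl-CoA desaturases (Scd1, Scd2) add a double bond. Srebf1 encodes a transcription factor that responds to insulin and drives many of these genes, and Plin2 coats the lipid droplets in which cells, proximal tubule cells included, store triglyceride. In a bulk sample, fewer cells of a type and less RNA per cell cannot be told apart.

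Fasn and Acacb are shown for members that differ in their pattern across libraries, and Plin2 for the E-box at its start. The stretches below come from the RefSeq table of build GRCm38.p6 and run 5′ to 3′ from 250 bases before the start of the gene to 20 after it. Capitals mark the letters CCAAT or CACGTG on either strand. The Fasn stretch lies at chr11:120824528-120824797 on the minus strand, that of Acacb at chr5:114165268-114165537 on the plus strand and that of Plin2 at chr4:86670040-86670309 on the minus strand.
Fasn: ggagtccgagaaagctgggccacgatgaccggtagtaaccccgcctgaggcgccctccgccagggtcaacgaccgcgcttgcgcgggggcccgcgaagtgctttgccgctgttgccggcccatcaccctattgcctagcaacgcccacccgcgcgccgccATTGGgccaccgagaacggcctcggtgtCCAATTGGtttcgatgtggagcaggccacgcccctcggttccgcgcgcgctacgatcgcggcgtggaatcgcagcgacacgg
Acacb: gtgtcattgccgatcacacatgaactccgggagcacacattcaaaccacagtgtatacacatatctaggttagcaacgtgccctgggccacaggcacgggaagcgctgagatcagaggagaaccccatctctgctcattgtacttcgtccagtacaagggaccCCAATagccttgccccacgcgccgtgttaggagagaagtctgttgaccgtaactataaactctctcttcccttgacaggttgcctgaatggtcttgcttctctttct
Plin2: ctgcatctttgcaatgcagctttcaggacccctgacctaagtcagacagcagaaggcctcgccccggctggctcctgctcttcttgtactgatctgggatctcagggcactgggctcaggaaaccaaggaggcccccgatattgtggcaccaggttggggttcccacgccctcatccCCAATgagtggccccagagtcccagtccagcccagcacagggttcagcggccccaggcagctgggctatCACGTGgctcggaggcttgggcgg

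RefSeq windows of 300 bases were found for 8 of the 10 members, in 11 windows, and none was matched for Scd1 and Scd2. The 3 letter strings searched on both strands were the E-box CACGTG, the sterol element core TCACNCC and the CCAAT box, none of which contains another. A CCAAT box was present in 7 of the 11 windows, against 37.4% of all 32851 windows. Fasn held 3 of them, with first bases at -90, -62 and -59 when the start of the gene is 0, and the last 2 of these overlap. An E-box was present in 1 window, that of Plin2, with its first base at -4, against 7.15% of all windows. Because it spans the start, this E-box is missed when the 250 bases before the start are searched alone. That shorter search was run first and found 0 member windows with an E-box, against 6.02% of all windows, and 6 with a CCAAT box, against 33.8%. The sterol element core was in 0 of the 11 windows in either search, against 15.6% of all windows of 300 bases. These matches describe letters in the windows and are not binding sites.

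Total counts per library lay between 65271308 and 91771136, so the spread between mice rather than counting set the precision for these abundant genes. The kidney origin was clear from 6 proximal tubule markers, which together held between 10616 and 14054 CPM in every library. CPM are counts scaled to the library's total after TMM adjustment of that total. Podocyte markers, at 253 to 335 CPM in sum, were present in all 16. Of 7 adrenal markers, Cyp11b1 and Cyp11b2 were at 0 in all 16 libraries, while Star lay between 3.58 and 6.81 CPM. Cyp11a1 was at 0 in 11 libraries, Cyp21a1 in 12, Mc2r in 2 and Hsd3b1 in 1. The sum of 4 liver markers (Alb, Apoa2, Ttr, Fgb) lay between 44.2 CPM, in a D_C library, and 120 CPM, in an ND_C library. Fat cell transcripts were uneven. The summed level of 7 adipocyte markers (Adipoq, Lep, Retn, Cfd, Adrb3, Plin1, Cidec) lay between 0.596 and 111 CPM in ND_C, and between 0.437 and 35.4 CPM in ND_B12. It lay between 0.375 and 78.2 CPM in D_C, and between 0.318 and 151 CPM in D_B12. The groups overlapped widely, and in the libraries with the least, Adipoq (at 0 in 4), Lep (at 0 in 8) and Retn (at 0 in 7) were absent.

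The group labels carry a doubt that touches each comparison. For each group in the table of group means supplied with the study, the set of 4 libraries closest to those means was sought among all 1820 sets. The closest set held 3 libraries with the same label for ND_C, 2 for ND_B12, 0 for D_C and 0 for D_B12. In those sets ND_B12 4 fell with diabetic libraries, D_C 1 fell with non-diabetic libraries, and the libraries labelled D_C and D_B12 changed places. ND_C 3 and ND_B12 1 also changed places between the non-diabetic groups. The median absolute log2 difference from the tabulated means was 0.000156 to 0.000261 for the closest sets and 0.0378 to 0.292 for the labelled ones. Groups and directions below follow the labels throughout, and the fit without ND_B12 4 and D_C 1 is given beside the results that moved with it. Leaving both out makes diabetes status the same under either reading, but the direction of a B12 difference in diabetic kidneys would still turn. Comparisons of untreated kidneys, of B12-treated kidneys and of B12 in non-diabetic kidneys, and the interaction, would still group the libraries differently. Library dates could not be separated from the groups either, because 1 date held both genotypes and no date held both D_C and D_B12.

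Compared per kilobase of exon, the members covered a wide range of mean levels over the 16 libraries. Me1 was the highest at 76.6 CPM per kilobase, followed by Scd1 at 18.1, Fasn at 11.6, Acly at 10.8, Scd2 at 10.6 and Plin2 at 9.76. Srebf1 stood at 5.41, Acacb at 5.01, Elovl6 at 2.37 and Acaca at 1.88. Fasn, Acly and Scd2 lay close to each other on this scale, whereas Me1 exceeded the next member several times over.

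**Figure D1:**
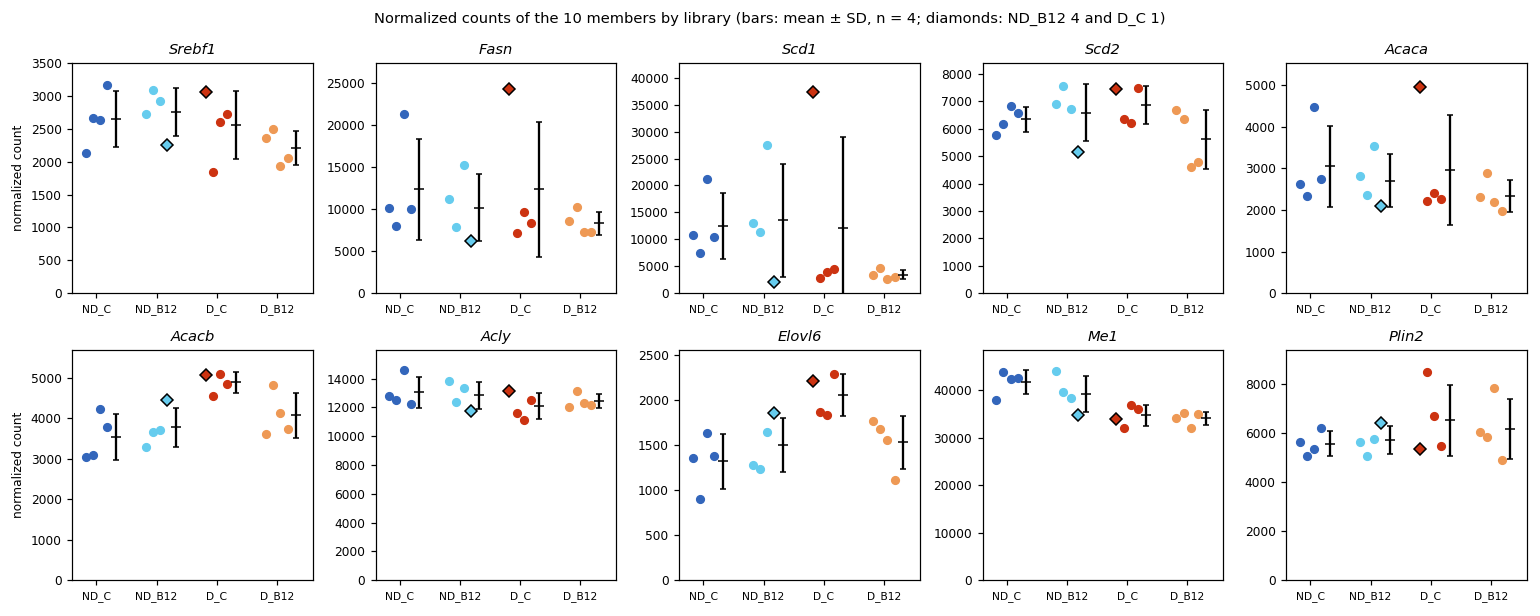
Normalized counts (linear axes from 0) of the 10 members in each library, with points for libraries, black bars for the group mean ± SD of 4 libraries, and diamonds for ND_B12 4 and D_C 1. The bar of Scd1 in D_C reaches below the axis because D_C 1 stands at 37447 and the other 3 libraries lie between 2793 and 4565.

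Me1 was the 1 member that changed with diabetes when both treatments were averaged. It encodes the cytosolic malic enzyme, which yields NADPH, and lies at chr9:86462646-86578104 on the minus strand (GRCm39, GENCODE vM39, as for all positions of members below). Its normalized counts, which are counts divided by a size factor per library, were 38003, 43837, 42334 and 42639 in ND_C and 43998, 39737, 38470 and 34775 in ND_B12. They were 33917, 32027, 36886 and 36121 in D_C and 34177, 35121, 32091 and 35052 in D_B12. The diabetic libraries were the lower ones, and ND_B12 4 was the single non-diabetic library within their range. The log2 fold change of diabetic against non-diabetic kidneys was -0.23 (SE 0.051, adjusted p = 0.0266, edgeR quasi-likelihood test with Benjamini-Hochberg adjustment over all genes tested, as for every adjusted p below). It was -0.25 (adjusted p = 0.00504) without ND_B12 4 and D_C 1. Leaving out each library in turn gave -0.26 to -0.21, with adjusted p from 0.00887 to 0.0591. The call was lost in 8 of these 16 fits, those without ND_C 2, ND_C 3, ND_B12 1, ND_B12 2, ND_B12 3, D_C 2, D_B12 1 or D_B12 3.

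The share of all genes called in this average comparison was 3.02%, or 767 genes, so 1 of 10 members is not far from the background. At an unadjusted p below 0.05 there were 3 members, against 19.4% of all genes. DESeq2 called 2 members, Acacb and Me1, against 7.23%. The median log2 fold change was -0.10 over the members and 0.01 over all genes tested. The fit without ND_B12 4 and D_C 1 had 9 of 10 members at an unadjusted p below 0.05, against 24.8% of all genes, and the median was -0.19 over the members and 0.00 over all genes. In untreated kidneys alone (D_C against ND_C) edgeR called 0 members, with 1.66% of all genes called. There were 3 members at an unadjusted p below 0.05, against 18.6% of all genes. DESeq2 called 3 members, Acacb, Elovl6 and Me1, against 6.44%. In B12-treated kidneys (D_B12 against ND_B12) edgeR and DESeq2 called 0 members, against 0.823% and 4.68% of all genes, and 3 members were at an unadjusted p below 0.05, against 17% of all genes.

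Markers of tubule segments, the proximal tubule included, and of macrophages moved with the groups too. Their part in the members' differences was not tested. The sum of the 6 proximal tubule markers was 12070 to 13015 CPM in ND_C and 12506 to 14054 CPM in ND_B12. It was 10616 to 13393 CPM in D_C and 11288 to 11802 CPM in D_B12, so D_B12 lay below ND_B12 without overlap. With diabetes on average 5 of the 6 were lower and 1 was called lower, where 3.02% of all genes were called. The sum of 4 collecting duct markers (Aqp2, Avpr2, Aqp3, Scnn1g) was 148 to 197 CPM in ND_C and 160 to 312 CPM in ND_B12. It was 226 to 488 CPM in D_C and 188 to 388 CPM in D_B12, so D_C lay above ND_C without overlap. Of the 4, 1 was called higher with diabetes on average and 2 in untreated kidneys, against 3.02% and 1.66% of all genes. The sum of 3 markers of the thick limb and distal tubule (Umod, Slc12a1, Slc12a3) lay between 2837 and 3378 CPM in D_B12, below D_C at 3549 to 4469 CPM and ND_C at 3800 to 4447 CPM, while ND_B12 had 3172 to 4361 CPM. For these markers 0 of the 3 were called by edgeR for average diabetes, 2 were at an unadjusted p below 0.05 and DESeq2 called 1. The shares of all genes were 3.02%, 19.4% and 7.23%. The sum of 7 macrophage markers (Adgre1, Cd68, Csf1r, Lyz2, C1qa, C1qb, Mrc1) lay between 59.5 and 67.3 CPM in D_B12 and between 80.0 and 86.5 CPM in D_C, without overlap. It was 86.8 to 104 CPM in ND_C and 62.4 to 92.2 CPM in ND_B12. With diabetes on average all 7 were lower. Of these, 1 was called by edgeR, 4 were at an unadjusted p below 0.05 and DESeq2 called 3, against the same shares of all genes.

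Scd1, the desaturase that makes oleate and palmitoleate, spanned the widest range of the members and fell into separate clusters of libraries. The gene lies at chr19:44382894-44399154 on the minus strand. Its normalized counts were 10765, 7370, 21277 and 10432 in ND_C and 13037, 11370, 27604 and 2134 in ND_B12. In D_C they were 37447, 2793, 3937 and 4565, and in D_B12 3430, 4596, 2641 and 2983. Of the libraries, 7 of the 8 labelled diabetic lay between 2641 and 4596, and 7 of the 8 labelled non-diabetic lay between 7370 and 27604. The exceptions were ND_B12 4 and D_C 1, whose diabetes status is in doubt. With all 16 libraries the groups overlapped, and the log2 fold change was -1.01 (SE 0.53, adjusted p = 0.315). Without ND_B12 4 and D_C 1 it was -2.04 (SE 0.26, adjusted p = 0.000408), -1.73 (adjusted p = 0.0142) in untreated and -2.34 (adjusted p = 0.00459) in B12-treated kidneys. In these 3 reduced comparisons 10.2%, 8.57% and 2.8% of all genes were called. Leaving out D_C 1 alone gave an average difference of -1.86 (adjusted p = 0.0124), so this 1 library decided the call. With the date in the library names as a covariate the average difference turned to 0.81, that of Fasn to 0.74 and that of Acaca to 0.55, and edgeR called 0 genes, Me1 included. In the same reduced average comparison Me1 and Acacb also passed, which makes 3 members of 10.

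Scd2, the second desaturase of the pair, did not show these clusters. It lies at chr19:44281613-44295303 on the plus strand, and its longest stretch shared with the Scd1 transcript was 86.8% identical over 1261 bases. Normalized counts were between 5777 and 6838 in ND_C, 5154 and 7574 in ND_B12, 6197 and 7481 in D_C, and 4610 and 6693 in D_B12. The ratio of Scd1 to Scd2 was between 1.19 and 4.10 in 7 libraries labelled non-diabetic and 0.414 in ND_B12 4. It was between 0.440 and 0.724 in 7 libraries labelled diabetic and 5.03 in D_C 1. Between the genotypes Scd2 differed by -0.06 on the log2 scale (SE 0.091, adjusted p = 0.770), with a 95% interval from -0.26 to 0.14, and by -0.13 (SE 0.086, adjusted p = 0.385) without ND_B12 4 and D_C 1.

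Acaca and Fasn carry consecutive steps, malonyl-CoA formation and chain building, and their counts followed each other closely. Fasn lies at chr11:120696672-120715995 on the minus strand and Acaca at chr11:84020476-84292477 on the plus strand. Normalized counts of Fasn were 10090, 7977, 21332 and 10021 in ND_C, and 11262, 7839, 15257 and 6256 in ND_B12. They were 24365, 7104, 9681 and 8300 in D_C, and 8555, 10211, 7293 and 7270 in D_B12. ND_C 3, ND_B12 3 and D_C 1 were the highest, and the other 13 libraries lay between 6256 and 11262. The same 3 libraries were the highest for Acaca, at 4477, 3545 and 4956, with the others between 1970 and 2880. The average diabetes difference was -0.14 for Fasn (SE 0.27, adjusted p = 0.826) and -0.13 for Acaca (SE 0.18, adjusted p = 0.763), and neither was detectable beside this spread. Without the 2 libraries the differences were -0.51 (adjusted p = 0.139) and -0.36 (adjusted p = 0.123).

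The 3 libraries with the most Fasn held many adipocyte transcripts, and other libraries with as many had Fasn between 6256 and 10211. Within ND_C and within D_B12 Fasn ranked in the order of the marker sum, and within ND_B12 and D_C it did not. The marker sum was 111 CPM in ND_C 3, 78.2 in D_C 1 and 31.7 in ND_B12 3. D_B12 2 had the highest sum of all, 151 CPM, with Fasn at 10211 and Scd1 at 4596. ND_B12 4, with 35.4 CPM, had the lowest Fasn of all at 6256, and D_B12 1 and D_C 3, with 32.9 and 32.4 CPM, had 8555 and 9681. The sum of 4 brown adipocyte markers was 54.1 CPM in ND_C 3, 38.9 in D_C 1, 24.8 in D_B12 2 and 10.1 in ND_B12 3, and at most 7.99 in the other 12 libraries. Of the 4 libraries with the highest brown adipocyte sums, 3 were those with the most Fasn and the fourth was D_B12 2, and the part of these cells in the members' differences was not tested. Over 16 libraries Pearson's r between the marker level and log2 CPM was 0.62 for Acaca (permutation p = 0.00778, adjusted over 9 relations 0.0649; Spearman's rho 0.55, p = 0.0309, adjusted 0.278). For Fasn r was 0.58 (permutation p = 0.0144, adjusted 0.0649; rho 0.46, p = 0.0709, adjusted 0.319). Leaving out D_B12 4 and D_C 4, farthest from the median marker level on a log2 scale, gave r = 0.55 for Acaca and 0.54 for Fasn. These had the lowest marker sums, 0.318 and 0.375 CPM, so ND_C 3 and D_C 1 stayed in. None of the 9 relations was below 0.05 after adjustment, and Scd1 was left out of them because its libraries fall into clusters. With the marker level as a covariate, an alternative chosen after seeing the data, the average difference was -0.13 for Fasn and -1.11 for Scd1 (adjusted p = 0.206). In that fit Me1 and Acacb were called among the members, against 2.51% of all genes, and in untreated kidneys Acacb and Elovl6 were, against 0.992%. With that covariate and without ND_B12 4 and D_C 1, Scd1 stood at -1.89 (adjusted p = 0.000101). There 4 members were called in the average, 3 in the untreated and 1 in the treated comparison, against 9.65%, 6.85% and 2.63% of all genes.

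**Figure D2:**
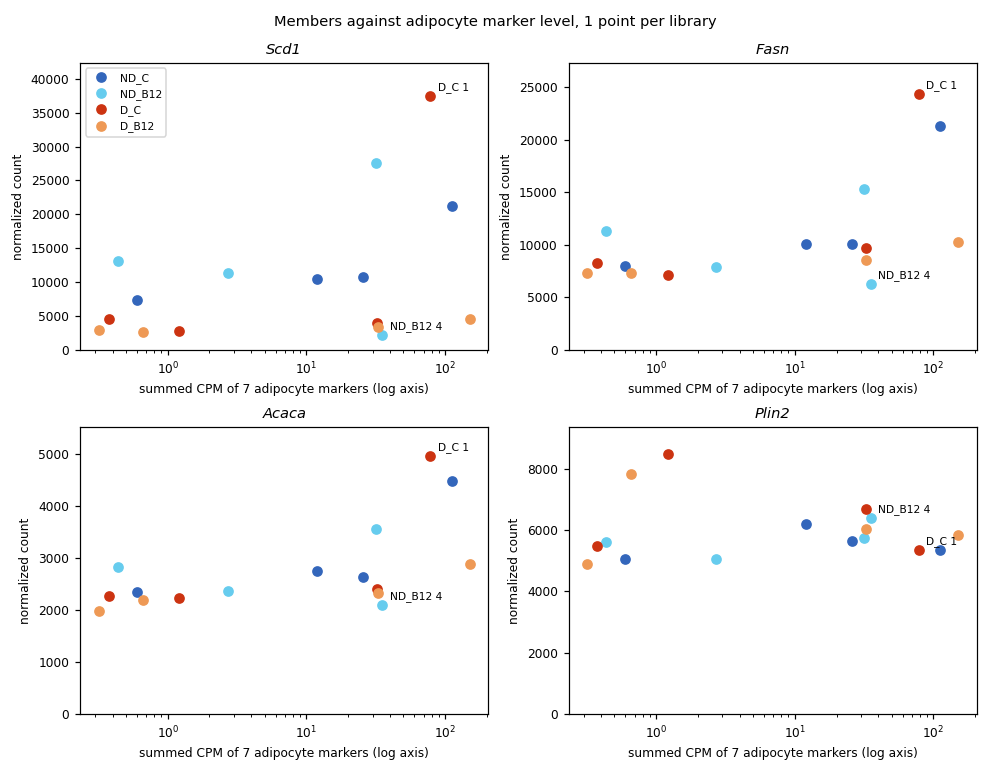
Normalized counts of Scd1, Fasn, Acaca and Plin2 (linear axes from 0) against the summed CPM of 7 adipocyte markers (log axis), with 1 point per library coloured by labelled group. Fasn and Acaca are highest in ND_C 3, ND_B12 3 and D_C 1, and D_B12 2, with the highest marker sum of 151 CPM, has Scd1 at 4596.

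Acacb and Elovl6 had higher values in the diabetic libraries on average, with the larger difference between the groups labelled untreated. The interaction did not pass the threshold for either, at -0.36 (adjusted p = 0.296) for Acacb and -0.61 (adjusted p = 0.242) for Elovl6. Acacb makes malonyl-CoA at the mitochondrial membrane, where it restrains fatty acid import, and lies at chr5:114284307-114388822 on the plus strand. Its normalized counts were 3033, 3091, 4227 and 3794 in ND_C and 5077, 4543, 5099 and 4855 in D_C, so these groups did not overlap. They were 3298, 3650, 3713 and 4444 in ND_B12 and 3611, 4829, 4121 and 3724 in D_B12, which overlapped. The untreated difference was 0.47 (SE 0.12, adjusted p = 0.0538) and the average difference 0.29 (SE 0.083, adjusted p = 0.0720), both short of the threshold in edgeR. DESeq2 called both, with DESeq2 adjusted p = 0.00504 and 0.0175, where it called 6.44% and 7.23% of all genes. Without ND_B12 4 and D_C 1 both passed in edgeR, at 0.45 (adjusted p = 0.0329) and 0.32 (adjusted p = 0.0265). Leaving out ND_B12 4 alone was enough for both, at adjusted p = 0.0377 and 0.0281, and leaving out ND_B12 1 for the untreated one, at 0.0484. Me1 also passed in untreated kidneys without ND_B12 4 (adjusted p = 0.0473).

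Elovl6, the elongase from palmitate to stearate, lies at chr3:129326004-129432144 on the plus strand. Its normalized counts were 1362, 907, 1640 and 1381 in ND_C and 2213, 1874, 1836 and 2299 in D_C, without overlap. In ND_B12 they were 1281, 1234, 1653 and 1857, and in D_B12 1772, 1679, 1562 and 1115, which overlapped. The untreated difference was 0.64 (SE 0.18, adjusted p = 0.0756), and 0.60 (adjusted p = 0.0634) without the 2 libraries. With all 16 libraries DESeq2 called it, with DESeq2 adjusted p = 0.0106, where 6.44% of all genes were called. Acacb, Elovl6 and Me1 were the 3 members whose untreated groups did not overlap, where 9.44% of all genes did not.

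Srebf1, Acly and Plin2 did not pass the threshold in any of the 4 comparisons for which single members are given. Srebf1, the transcription factor gene, lies at chr11:60089913-60113407 on the minus strand, with 2656 ± 425 normalized counts in ND_C (SD, n = 4), 2754 ± 365 in ND_B12, 2562 ± 515 in D_C and 2212 ± 264 in D_B12. Its average difference was -0.19 (SE 0.10, adjusted p = 0.356). Acly, which supplies acetyl-CoA, lies at chr11:100367165-100440756 on the minus strand and had means of 13044 ± 1077, 12836 ± 946, 12099 ± 877 and 12421 ± 480 in the same order, a difference of -0.08 (SE 0.049, adjusted p = 0.406).

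Plin2, the droplet coat protein, lies at chr4:86565912-86588459 on the minus strand. Its normalized counts were between 5051 and 6212 in ND_C and between 5064 and 6409 in ND_B12. They were 5362, 8496, 6686 and 5480 in D_C and 6032, 5846, 7829 and 4912 in D_B12. D_C 2 and D_B12 3 were the highest, and the groups overlapped. The average difference was 0.17 (SE 0.10, adjusted p = 0.411), with a 95% interval from -0.06 to 0.39.

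**Figure D3:**
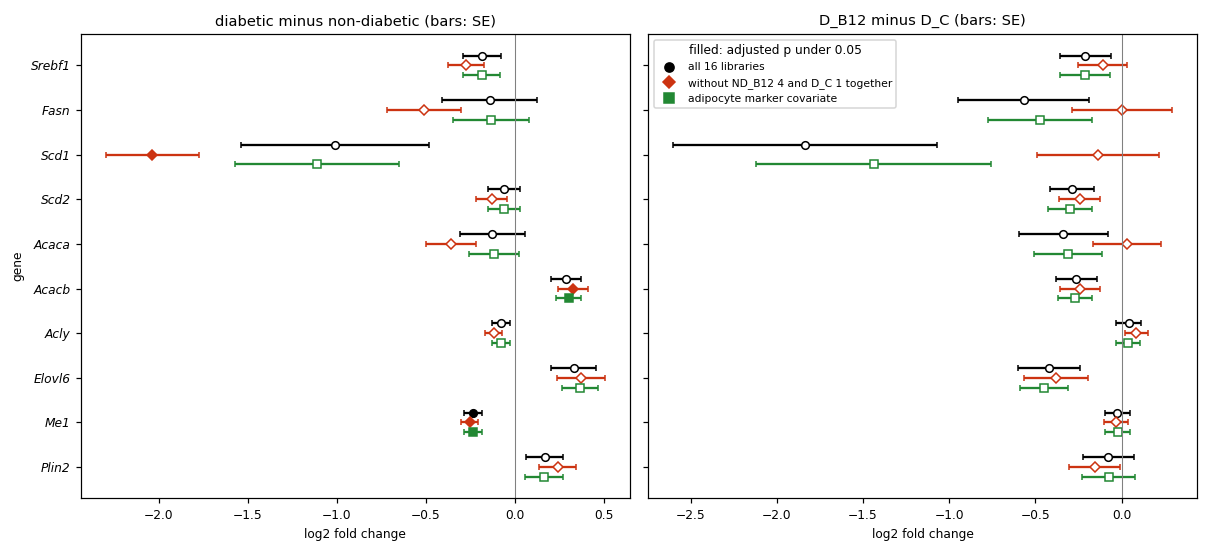
Log2 fold changes of the 10 members with SE bars, for diabetic against non-diabetic kidneys (left) and D_B12 against D_C (right), with all 16 libraries, without ND_B12 4 and D_C 1, and with the adipocyte marker level as a covariate. Filled symbols have an adjusted p below 0.05, and Scd1 moves from -1.01 to -2.04 on the left when the 2 libraries are left out.

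No member passed the threshold for B12 in any fit of all 16 libraries by group. In diabetic kidneys (D_B12 against D_C) 9 of 10 members were lower in D_B12, with a median of -0.28 against 0.00 over all genes, but edgeR called 0 members and 0% of all genes. When ND_B12 4 and D_C 1 were left out, 7 of 10 were lower, the median was -0.12, and 0 members were at an unadjusted p below 0.05, against 17.2% of all genes. With all 16 libraries, at an unadjusted p below 0.05 there were 4 members (Scd1, Scd2, Acacb and Elovl6), where 13.6% of all genes were, and DESeq2 called 0 members and 2.64% of all genes. Elovl6 was the member whose groups did not overlap, where 6.58% of all genes did not. Its difference was -0.42 (SE 0.18, adjusted p = 0.311), that of Acacb -0.26 (SE 0.12, adjusted p = 0.338) and that of Scd2 -0.29 (SE 0.13, adjusted p = 0.336), and without the 2 libraries these were -0.38, -0.24 and -0.24. The macrophage and the thick limb and distal tubule sums given above were lower in D_B12 than in D_C without overlap, and of the markers in these 2 lists and the collecting duct list 0 were called by edgeR. All 7 macrophage markers were lower, and of the 3 thick limb and distal tubule markers 2 were lower and 1 higher. In this comparison 4 of 7, 2 of 3 and 1 of 4 were at an unadjusted p below 0.05, and DESeq2 called 1, 2 and 0.

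Scd1 differed by -1.83 between D_B12 and D_C (SE 0.77, adjusted p = 0.304), a value set largely by D_C 1. Without ND_B12 4 and D_C 1 it was -0.14 (SE 0.35, adjusted p = 0.891), Fasn moved from -0.57 to 0.00 and Acaca from -0.34 to 0.03. In that reduced comparison edgeR called 0 members and 0.87% of all genes. Because the table of group means places D_C and D_B12 the other way round, the sign of every value in this comparison depends on the labels.

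In non-diabetic kidneys, edgeR called 0 members for B12 and 0% of all genes, and log2 fold changes lay between -0.28 and 0.19. There 0 members were at an unadjusted p below 0.05, against 7.62% of all genes, and DESeq2 called 0, against 0.0236%. Averaged over both genotypes edgeR called 0 members and 0% of all genes, with 0 members at an unadjusted p below 0.05, against 5.2%, 0 called by DESeq2, against 0.0236%, and a median of -0.10 over the members. For the interaction, which tests whether the B12 difference is the same in both genotypes, edgeR called 0 members and 0% of all genes. There 2 members were at an unadjusted p below 0.05, against 16.1% of all genes, and DESeq2 called 0, against 3.71%.

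Among 84 further genes of lipid metabolism in 7 lists, 6 were lower in diabetic kidneys on average and 0 were higher. Of the 6, 5 belong to the 14 genes of elongation and desaturation. Hacd2, Tecr and Hsd17b12 encode later steps of the elongation cycle, Fads1 and Fads2 are the desaturases of polyunsaturated fatty acids, and Slc27a2 takes up and activates very long chain fatty acids. Among all genes tested, 2.16% were called lower and 0.862% higher.

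Hacd2 had normalized counts of 5440, 6291, 6415 and 5780 in ND_C and 6010, 5951, 6048 and 4783 in ND_B12, against 5259, 4471, 4275 and 4927 in D_C and 4643, 5075, 4323 and 4650 in D_B12. The diabetic libraries lay below 7 of the 8 non-diabetic ones, ND_B12 4 being the exception. The log2 fold change was -0.31 (SE 0.060, adjusted p = 0.0168). Fads2 had the largest of the 6 decreases, at -0.40 (SE 0.091, adjusted p = 0.0296), followed by Fads1 at -0.35 (adjusted p = 0.0393). Slc27a2 stood at -0.26 (adjusted p = 0.0378), Hsd17b12 at -0.24 (adjusted p = 0.0255) and Tecr at -0.20 (adjusted p = 0.0168). All 6 passed without ND_B12 4 and D_C 1, with -0.38 for Hacd2, -0.48 for Fads2, -0.43 for Fads1, -0.30 for Slc27a2, -0.29 for Hsd17b12 and -0.22 for Tecr, and adjusted p from 0.000484 to 0.00815. Hacd2 and Tecr kept their calls in each of the 16 fits that left out 1 library. The call was lost in 12 of these fits for Fads1, 11 for Slc27a2, 8 for Fads2 and 8 for Hsd17b12, with adjusted p values of at most 0.0821, 0.0824, 0.0659 and 0.0600. With the date as a covariate edgeR called 0 genes for average diabetes, so none of the 6 calls held, those of Hacd2 and Tecr included.

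**Figure D4:**
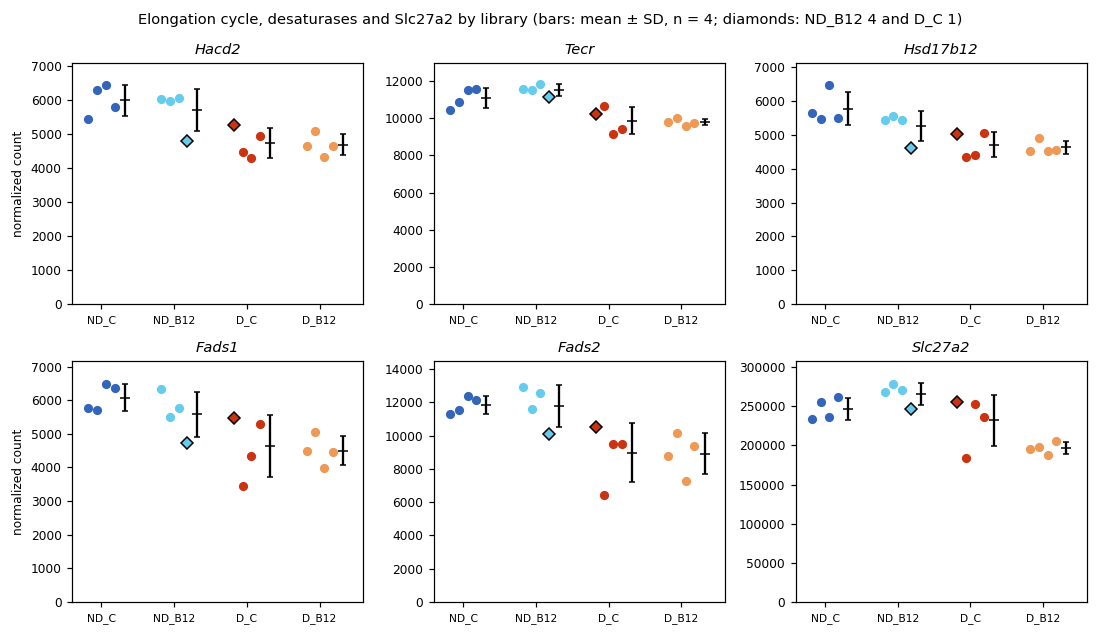
Normalized counts (linear axes from 0) of Hacd2, Tecr, Hsd17b12, Fads1, Fads2 and Slc27a2 in each library, with the group mean ± SD of 4 libraries and diamonds for ND_B12 4 and D_C 1. For Hacd2, ND_B12 4 at 4783 falls among the diabetic libraries and D_C 1 at 5259 is the highest of these.

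The other lists held fewer calls. The regulators, precursor and NADPH genes, triglyceride synthesis, droplet proteins and lipolysis had 0 called by edgeR in the average comparison. At an unadjusted p below 0.05 the counts were 4 of 14 regulators, 3 of 10 precursor and NADPH genes, 3 of 14 triglyceride synthesis genes, 0 of 11 droplet protein genes and 2 of 6 lipolysis genes. DESeq2 called 1, 1, 0, 0 and 1 of them. Over all genes tested these shares were 19.4% and 7.23%. Of 15 uptake and activation genes, Slc27a2 was the 1 called.

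Without ND_B12 4 and D_C 1, 8 of the 84 were lower and 6 higher, with 10.2% of all genes called. The higher ones included Gpam, which starts glycerolipid synthesis, at 0.39 (adjusted p = 0.000255), Mgll, the monoglyceride lipase, at 0.91 (adjusted p = 0.00179), and the NADPH enzymes Pgd at 0.31 and G6pdx at 0.22. Lpl, which releases fatty acids from circulating triglyceride, was lower at -1.15 (adjusted p = 0.000218). In this reduced comparison 4 of the 7 macrophage markers were called lower, 2 of the 4 collecting duct markers higher and 2 of the 3 thick limb and distal tubule markers lower. Of the 6 proximal tubule markers 1 was called lower. Their part in these differences was not tested.

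**Figure D5:**
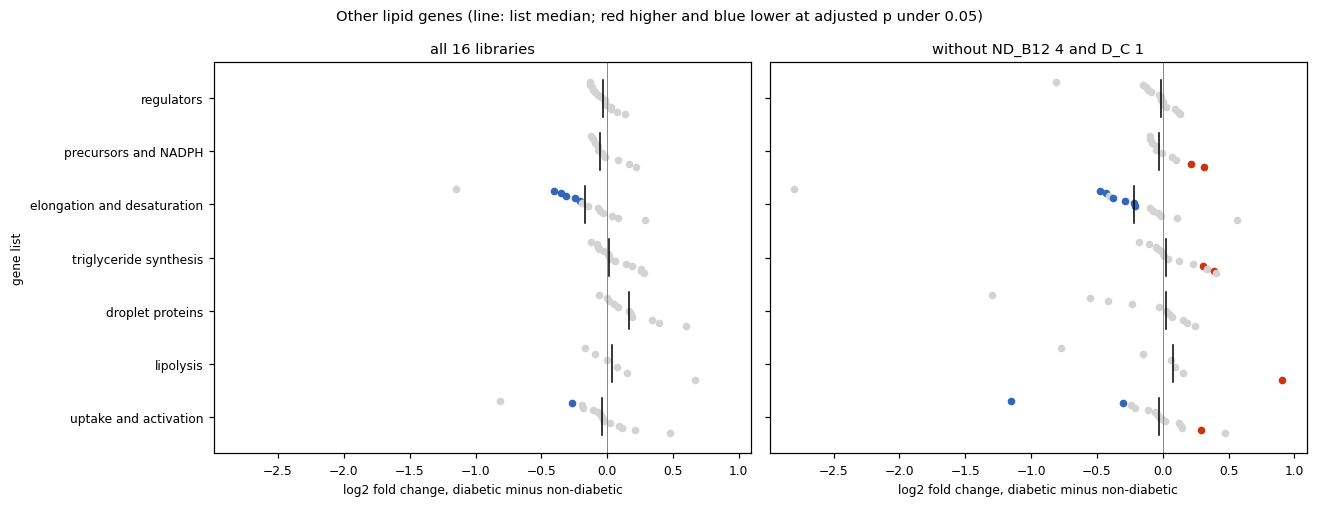
Log2 fold changes of diabetic against non-diabetic kidneys for the 84 further genes in 7 lists, with all 16 libraries (left) and without ND_B12 4 and D_C 1 (right). Lines are list medians, red and blue points are higher and lower at an adjusted p below 0.05, and on the left 5 of the 6 called genes are in the elongation and desaturation list.

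For B12 in diabetic kidneys 0 of the 84 were called by edgeR, 9 had an unadjusted p below 0.05 and DESeq2 called 1, where the shares of all genes were 0%, 13.6% and 2.64%. The 3 with the smallest p were Acss2, which makes acetyl-CoA from acetate, at -0.17 (adjusted p = 0.153), the liver X receptor gene Nr1h3 at 0.22 (adjusted p = 0.161) and Insig1, which retains sterol regulatory proteins in the endoplasmic reticulum, at -0.32 (adjusted p = 0.239). None of the 3 overlapped between D_B12 and D_C, where 6.58% of all genes did not. Acss2 lay between 19381 and 20144 normalized counts in D_B12 and between 20489 and 23369 in D_C. Nr1h3 lay between 2511 and 2710 in D_B12 and between 1999 and 2394 in D_C. Insig1 lay between 3594 and 4311 in D_B12 and between 4411 and 5730 in D_C. Without ND_B12 4 and D_C 1, 1 of the 84 passed, Acss2 at -0.20 (adjusted p = 0.0460), and it was also the 1 called for the interaction, at -0.31 (adjusted p = 0.0471), where 0.87% and 0.35% of all genes were called. Nr1h3 then stood at 0.18 (adjusted p = 0.177) and Insig1 at -0.36 (adjusted p = 0.156).

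The genes most like Fasn over the 16 libraries, by Pearson's r of log2 CPM among 15361 genes with a mean of at least 100 normalized counts, were Gm5182 (0.98), Acaca (0.98), Thrsp (0.89), Scd1 (0.86) and Celf2 (0.85). Gm5182 is a processed pseudogene on chromosome 12 that matches the Acaca-202 transcript at 99.2% over 6118 bases, so reads may have been divided between them and the Acaca count is uncertain. Plin2 had a different set, namely Gm37691 (0.95), Cpt2 (0.93), Prkcd (0.92), Gramd2b (0.90) and Acot5 (0.90). Cpt2 and Acot5 act in the oxidation and hydrolysis of fatty acyl-CoA. These values describe 16 libraries that share the groups and dates above.

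The deposited counts per transcript summed to the gene count for each member. Fasn, Scd1, Scd2, Me1 and Plin2 came almost wholly from 1 transcript, with 98% or more of the gene's counts. Acly was divided between Acly-203 with 51.2% and Acly-201 with 45.3%, which differ by 1 exon. The share of Acly-203 was 44.0% to 50.4% in ND_C and 50.8% to 65.6% in D_C, while in ND_B12 it was 40.6% to 58.7% and in D_B12 41.9% to 53.8%. The untreated groups did not overlap in this share and the treated groups did. The share of Acly-201 did overlap in the untreated groups, at 46.3% to 53.4% in ND_C and 31.9% to 46.7% in D_C. How often transcript shares of other genes do not overlap was not examined. Acaca was divided between Acaca-202, which starts upstream, and Acaca-201, with Acaca-202 at 9.51% to 89.8% of the gene's counts over the libraries. Shares of transcripts that overlap over most of their length are estimates, and none was tested.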

How the data were processed

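Kidney RNA from 16 mice in 4 labelled groups was sequenced. Per the study's methods, reads were aligned with STAR to GRCm39 (GENCODE vM35), and the authors deposited an estimated count per gene and per transcript made with StringTie and prepDE, all whole numbers. Strand-specific counting was not stated, so overlapping and antisense genes cannot be separated. Genes reaching 100 counts in total were tested in R 4.3.3 with edgeR 4.0.16 (TMM, glmQLFit and glmQLFTest, 1 mean per group, 12 residual degrees of freedom, two-sided, Benjamini-Hochberg at 0.05). DESeq2 1.42.0 was an alternative, as were other scalings, filters and covariates, the replicate number as a block, and libraries left out. The tests were tried on simulated data. The adipocyte correlations used 100000 permutations. Transcripts were compared with blastn 2.17.0, and positions come from GENCODE vM39.

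All members are named, with, of the 84 other genes, those passing 0.05 (at most 8 by smallest p, otherwise the 3 smallest p) for average diabetes and for B12 in diabetic kidneys. Those named for the fit without 2 libraries were chosen after their values were seen. Members and lists were chosen with earlier results of these data known. Promoter letters were searched first in the 250 bases before the start and then, with that result seen, in the whole 300-base window, which is the search planned, and both are given.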

Additional observations from a re-analysis of the deposited data

Results flagged for a closer look

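Of 40 combinations of member and group, 4 had 1 library far from the other 3, and chance flags about 1 group in 20. Fasn stood at 21332 normalized counts in ND_C 3, where the next library had 10090. In D_C 1 it stood at 24365, the next at 9681. Scd1 stood at 37447 in D_C 1, the next at 4565. Acaca stood at 4956 in D_C 1, the next at 2397. D_C 1 is 1 of the 2 libraries whose diabetes status is in doubt, and its adipocyte marker sum was 78.2 CPM.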

How the results depend on the processing

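Counts below are of all genes called in the order average diabetes, diabetes untreated, diabetes B12-treated, B12 in diabetic kidneys and interaction, where they moved by over 1.5 times from 767, 423, 209, 0 and 0. DESeq2 called 1837, 1637, 1189, 670 and 943, with 6 for B12 in non-diabetic kidneys and 6 for average B12, and 2 members for average and 3 for untreated diabetes. Upper-quartile scaling called 18 for treated diabetes. Testing genes with at least 1 count called 427, 63 and 35 for the diabetes comparisons. The date as a covariate called 0, 2, 29, 204 and 753, and 0 members for average diabetes. Fits of the compared groups alone called 242 for untreated diabetes and 1 for B12 in diabetic kidneys. Without ND_B12 4 and D_C 1 the counts were 2531, 2127, 695, 216 and 87, with 3, 3 and 1 members for the diabetes comparisons. The adipocyte covariate, chosen after seeing the data, called 252 for untreated and 104 for treated diabetes and 1 for B12 in diabetic kidneys, with 2 members each for average and untreated diabetes. Combined with leaving out the 2 libraries it called 2396, 1700, 653, 116 and 3, with 1 for B12 in non-diabetic kidneys and 4, 3 and 1 members. The shorter promoter search, run first, found 0 E-boxes in place of 1.

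Replicate numbers did not pair the libraries, since 5 of 16 correlated best with their own number and correlations of same-numbered libraries ran from -0.18 to 0.17. With the replicate number as a block the counts were 478, 269, 25 and 147 for average, untreated and treated diabetes and the interaction, with 0 members for average diabetes and Fasn at -0.0427 in untreated diabetes.

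Signs turned as follows, on the log2 scale. With the date covariate, average diabetes gave 0.74 for Fasn, 0.81 for Scd1, 0.27 for Scd2, 0.55 for Acaca and 0.0196 for Acly. Untreated diabetes gave 0.93 for Scd1 and 0.40 for Acaca. Treated diabetes gave 0.92 for Fasn, 0.68 for Scd1, 0.20 for Scd2, 0.71 for Acaca and 0.0807 for Acly. B12 in diabetic kidneys gave 0.32 for Fasn, 0.40 for Scd1 and 0.33 for Acaca. Fasn in untreated diabetes was -0.000645 with upper-quartile scaling, -0.57 without the 2 libraries and -0.29 with the adipocyte covariate as well, and Acaca was 0.0154 with that covariate alone. Without the 2 libraries, B12 in diabetic kidneys gave 0.00046 for Fasn and 0.0309 for Acaca. The cause of these turns was not tested.

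Leaving out each library in turn gave 235 (without ND_B12 3) to 1700 (without D_C 1) genes for average diabetes, 0 (without ND_C 2) to 1552 (without D_C 1) for untreated and 0 (without ND_B12 2) to 441 (without D_C 2) for treated diabetes. For B12 it gave 0 to 69 in diabetic and 0 to 2 in non-diabetic kidneys, and 0 to 266 for the interaction. Members called ranged from 0 to 2 for average and for untreated diabetes. Signs turned for untreated diabetes in Fasn (-0.57 to 0.40), Scd1 (-1.74 to 0.36), Acaca (-0.42 to 0.21) and Srebf1 (-0.16 to 0.0739), and for average diabetes in Fasn (-0.42 to 0.0583). They turned for treated diabetes in Elovl6 (-0.0609 to 0.15) and Plin2 (-0.0328 to 0.20), and for B12 in diabetic kidneys in Fasn (-0.75 to 0.0126), Acaca (-0.46 to 0.0433), Me1 (-0.0523 to 0.0164) and Plin2 (-0.22 to 0.0863).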
